A study of Homo sapiens with 4 samples.

Results

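The pocket protein genes are a family of 3 human genes, RBL1, RB1 and RBL2, and their RNAs were examined here for peaks of the RNA-binding protein ZFR. They were found by gene identifier, ENSG00000080839.7 for RBL1, ENSG00000139687.9 for RB1 and ENSG00000103479.10 for RBL2. The 3 genes are among 17764 in the peak lists, and they hold 257 of 595484 listed peaks, 172 in RBL1, 45 in RB1 and 40 in RBL2. RBL1 was chosen because its share of peaks was high in both eCLIP libraries over the inputs, so its difference between eCLIP and input is given as a description with no test. RB1 and RBL2 were taken as its paralogues.

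The study tested 2 eCLIP libraries against 2 size-matched inputs, numbered 1 and 2 in each group. In eCLIP, RNA crosslinked to a protein by ultraviolet light is recovered with that protein, while the size-matched input carries the RNA of the same gel region without immunoprecipitation. All 4 libraries came from the human embryonic kidney line HEK-293 Flp-In TREx with FLAG-ZFR stably integrated at its FRT site, as polyclonal cells given 1 µg/mL doxycycline for 48 to 72 h and crosslinked at 400 mJ/cm2, so the inputs carry the induced transgene too. No label names a separate culture for each library, so the spread between libraries of a group may be technical, and peak lists without expression values gave no check of the cell line's markers.

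Pocket proteins are brakes of the cell cycle. RB1 encodes pRB, the retinoblastoma tumour suppressor, RBL1 encodes p107 and RBL2 encodes p130, and each holds transcription factors of the E2F family at the promoters of genes for DNA replication and division until cyclin-dependent kinases phosphorylate the pocket protein. p107 and p130 also assemble with the MuvB proteins into the DREAM repressor complex, in which p130 is the usual partner in resting cells, and RBL1 is itself transcribed under E2F control in cycling cells. ZFR is a zinc finger protein with a DZF domain that binds RNA in the nucleus and acts on alternative splicing. A peak in one of these genes thus marks RNA made from it, and not a binding site of the pocket protein.

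The libraries differed widely in length. The lists held 479308 and 41904 peaks in eCLIP libraries 1 and 2 and 63068 and 11204 peaks in inputs 1 and 2, over 3075352 and 229647 reads in peaks against 249245 and 102084. Values are therefore given as peaks per 10000 peaks of the same library, with Wilson 95% intervals that cover counting error only. Touching intervals were counted apart. Merging them shortened input 1 from 63068 to 46390 peaks, but eCLIP library 1 only from 479308 to 476131. The sequencing depth behind the lists is unknown. The whole number of at least 3 that ends each peak's name was read as its reads, which the files do not state.

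RBL1 carried many ZFR eCLIP peaks and few input peaks. Its transcripts held 134 peaks in eCLIP library 1 and 33 in eCLIP library 2, against 5 in input 1 and none in input 2. As shares these were 2.80 (interval 2.36 to 3.31) and 7.88 (5.61 to 11.1) per 10000 peaks in the eCLIP libraries, against 0.793 (0.339 to 1.86) and 0 per 10000 in the inputs. Both eCLIP libraries lay above both inputs, and the share of eCLIP library 2 was the highest. Among the 8914 genes whose peaks over the 4 libraries summed to at least 10, the genes tested, 21.1% had both eCLIP shares above both inputs and 10.2% had both below. RBL1 is one of the 21.1%, from which nothing is read, since it was chosen on these shares. By number of peaks, RBL1 ranked 688 of 15839 genes in eCLIP library 1 and 138 of 7728 in eCLIP library 2, against 3493 of 11275 in input 1.

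Reads in peaks ordered the libraries in the same way. RBL1 held 752 and 122 reads in its eCLIP peaks, against 17 in input 1 and 0 in input 2. These are 2.45 and 5.31 of every 10000 reads in eCLIP peaks, against 0.682 and 0 of every 10000 in input peaks. In the libraries numbered 1 the eCLIP share was 3.53 times that of the input by peaks and 3.59 times by reads. No fold is given for the libraries numbered 2, because input 2 listed no RBL1 peak. On the log2(peaks per 10000 + 0.5) scale the RBL1 means were 2.39 in eCLIP and -0.31 in input. The difference of 2.71 (SE 0.82) placed it 1 of 8914 genes by size, beside a median of 0.16 over all genes tested, again a description of the value it was chosen for.

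**Figure D1:**
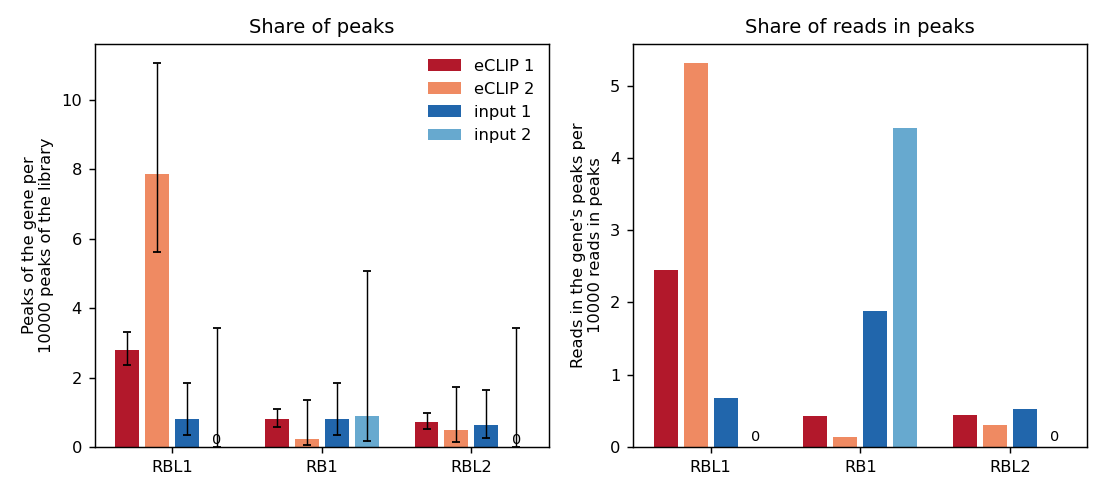
Left, peaks of each gene per 10000 peaks of the library, with Wilson 95% intervals for counting error; right, reads in the gene's peaks per 10000 reads in peaks, with no error bars. Colours mark the 4 libraries. RBL1 stands at 2.80 and 7.88 per 10000 peaks in eCLIP and at 0.793 and 0 in the inputs, while the read share of RB1 is highest in input 2, at 4.41 per 10000.

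RB1 passed no test in either direction. It listed 38 and 1 peaks in eCLIP libraries 1 and 2, against 5 and 1 in inputs 1 and 2. Its shares were 0.793 (0.578 to 1.09) and 0.239 (0.042 to 1.35) per 10000 peaks in eCLIP, against 0.793 (0.339 to 1.86) and 0.893 (0.158 to 5.05) per 10000 in the inputs. The number 1 libraries gave nearly the same share, 1.00 times the input, with touching intervals counted apart. Merged, RB1 had 37 of 476131 peaks in eCLIP library 1 and 5 of 46390 in input 1, a lower share in eCLIP. The share of eCLIP library 2 was the lowest of the 4. In the fit over all 8914 genes with limma, RB1 had a log2 difference of -0.46 (SE 0.82, 95% interval -2.16 to 1.24) and a Benjamini-Hochberg adjusted p of 0.995.

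RBL2 passed no test either. It listed 34 and 2 peaks in eCLIP libraries 1 and 2, against 4 in input 1 and none in input 2. Its shares were 0.709 (0.508 to 0.991) and 0.477 (0.131 to 1.74) per 10000 peaks in eCLIP, against 0.634 (0.247 to 1.63) and 0 per 10000 in the inputs. Of the tested genes, 35.3% likewise had peaks in both eCLIP libraries and none in input 2, the shortest list, so the 0 of RBL1 and RBL2 there was a common value. The groups overlapped, because eCLIP library 2 lay below input 1. In the number 1 libraries its eCLIP share was 1.12 times that of the input. The limma fit gave RBL2 a log2 difference of 0.53 (SE 0.79, 95% interval -1.11 to 2.17) with an adjusted p of 0.995. Without input 2, which listed no RBL2 peak, the difference was -0.061, and without input 1 it was 1.12.

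limma called 0 of the 8914 genes higher in eCLIP (0%) and 0 lower (0%) after adjustment, and 112 higher (1.26%) and 62 lower (0.696%) at an unadjusted p under 0.05. Neither RB1 nor RBL2 was among these, with unadjusted p values of 0.58 and 0.51. With 2 libraries a side, the smallest two-sided p of an exact permutation test is 0.33, so none was run. Leaving aside RBL1, which was chosen for a high difference, RBL2 lay above and RB1 below the median log2 difference of 0.16 over all genes tested, of which 59.7% were above 0.

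**Figure D2:**
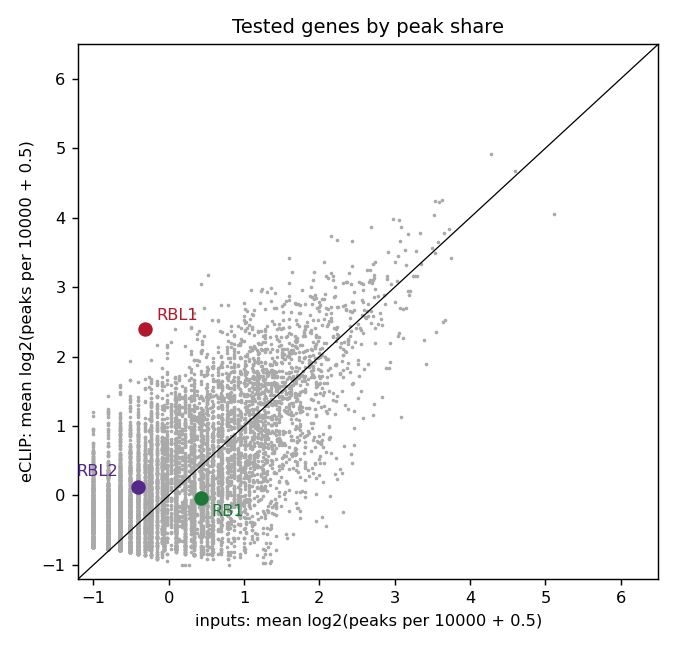
Each grey point is 1 of the 8914 tested genes, by its mean log2(peaks per 10000 + 0.5) in the 2 inputs (horizontal) and the 2 eCLIP libraries (vertical); the line marks equal shares. RBL1 lies above the line at 2.39 in eCLIP and -0.31 in input, RB1 lies below it and RBL2 somewhat above it, both within the bulk of the genes.

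Per length of gene, the same peak counts made RBL1 the most densely covered of the 3 in both eCLIP libraries, though not in input 1. This restates, on another scale, the counts for which RBL1 was chosen, and is no further support. Each gene's span was taken to run between the outermost bases of its peaks in any library, in hg19 coordinates counted from 1. RBL1 spanned 98.1 kb on the minus strand of chromosome 20 (35624901 to 35722994). RB1 spanned 176 kb on the plus strand of chromosome 13 (48880050 to 49055593), and RBL2 56.1 kb on the plus strand of chromosome 16 (53469148 to 53525229). In eCLIP library 1 the density was 13.7 peaks per 10 kb of span in RBL1, against 2.16 in RB1 and 6.06 in RBL2. In eCLIP library 2 it was 3.36 per 10 kb in RBL1, against 0.057 in RB1 and 0.357 in RBL2. In input 1 RBL2 was the densest at 0.713 per 10 kb, with RBL1 at 0.510 and RB1 at 0.285. These are densities of listed peaks, and expression of the 3 genes was not measured in these files.

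Within RBL1 the peaks were most crowded in the 5′ part of the span, though not at its very start. The first of 5 equal parts of the span held 33.6% (26.1 to 41.9) of its peaks in eCLIP library 1 and 60.6% (43.7 to 75.3) in eCLIP library 2, and 3 of 5 peaks in input 1. Over the 6536 genes with 20 or more peaks spread over 5 kb or more, this first part held 28.5% and 28.9% of the peaks in the eCLIP libraries, against 24.0% and 26.7% in the inputs. Divided into 10, the first part held 11.9% (7.48 to 18.5) and 21.2% (10.7 to 37.8) of the RBL1 peaks in the eCLIP libraries and the second part 21.6% (15.5 to 29.4) and 39.4% (24.7 to 56.3). Over all genes these parts held 15.9% and 15.6%, and 12.7% and 13.3%. The pooled peaks of all these genes thus lean to the 5′ end too, but with the first of 10 parts fuller than the second. The interval for the first of 5 parts of RBL1 takes in the value over all genes in eCLIP library 1 but not in eCLIP library 2. Of the 10 parts, the intervals for the first take in that value in both libraries, and those for the second lie above it in both. These intervals cover counting error only. The small number of input peaks in RBL1 leaves its own background unsettled, at 23.1 to 88.2% for input 1.

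The crowding was greatest 7.26 to 17.2 kb into the span. The densest 10 kb of eCLIP library 1 ran from 35705811 to 35715735 and held 31 of 134 peaks and 35.2% of the RBL1 reads in 10.2% of the span. The same stretch held 17 of the 33 peaks of eCLIP library 2 and 3 of the 5 of input 1. Chosen in eCLIP library 2 itself, the densest 10 kb ran from 35707391 to 35717260 and held 18 of 33 peaks. Both libraries thus put their densest stretch at nearly the same place, and input 1 had peaks there too. In eCLIP library 1, peaks inside the stretch picked in that same library were also deeper, with a median of 6 reads, against 4 reads outside it.

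Away from the dense stretch, peaks were sparse in the middle of RBL1 and close to an even spread toward the 3′ end, by limits chosen after the values were seen. Between 30 and 70 kb from the 5′ end, 40.8% of the span, eCLIP library 1 listed 32 of its 134 RBL1 peaks (23.9%) and eCLIP library 2 listed 2 of 33 (6.06%). Beyond 70 kb, 28.6% of the span, they listed 39 (29.1%) and 8 (24.2%). Counted in 10 stretches, each of 10 kb but the last of 8.09 kb, the numbers of peaks of the 2 eCLIP libraries followed each other with a Pearson r of 0.88, a description over stretches of 1 gene that share their libraries. The longest run without a peak start in eCLIP library 1 was 4807 bases, and the median step from peak to peak was 391 bases, against 1917 in RB1 and 705 in RBL2.

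**Figure D3:**
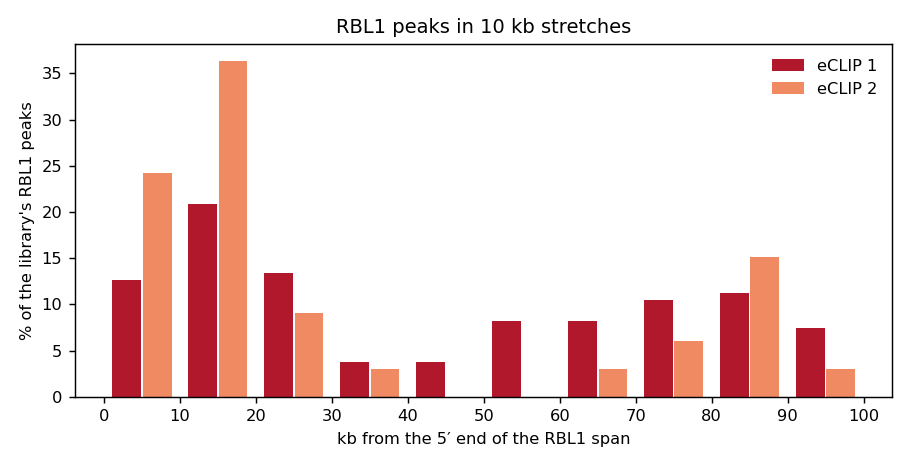
Share of each eCLIP library's RBL1 peaks (percent, of 134 in eCLIP 1 and 33 in eCLIP 2) in 10 kb stretches counted from the 5′ end of the span; the last stretch holds the final 8.09 kb. Both libraries are highest between 10 and 20 kb, at 20.9% and 36.4%, and between 80 and 90 kb they stand at 11.2% and 15.2%.

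At the resolution of single peaks the 2 eCLIP libraries met less often. Of the 134 RBL1 peaks of eCLIP library 1, 9 (6.72%, interval 3.57 to 12.3) overlapped a peak of eCLIP library 2 by at least 1 base, against 2.96% over all genes. Counted the other way, 10 of the 33 peaks of eCLIP library 2 (30.3%, 17.4 to 47.3) overlapped one of eCLIP library 1, against 33.1% over all genes. The second interval takes in the value over all genes. The first does not, but it covers counting error only and the count of eCLIP library 2 peaks per gene bears on it. RBL1 was chosen for a high share of such peaks, so nothing is read from the first. None of the 9 overlapped an input peak, but the inputs listed only 5 and 0 peaks in RBL1. Such eCLIP-only shared peaks numbered 12067 over all genes, out of 14167 peaks of eCLIP library 1 that overlapped eCLIP library 2. Most shared peaks of all genes were thus eCLIP-only too. They made up 2.52% of the list of eCLIP library 1, and RBL1 had 9, RBL2 had 1 and RB1 had 0.

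Of the 9 shared RBL1 sites, 7 had their midpoint between 5.74 and 15.6 kb from the 5′ end. Ranked by reads in the weaker library, the top site was a 2-base interval of eCLIP library 1 at 35713090 to 35713091, with 5 reads, inside an eCLIP library 2 peak of 6 reads at 35713069 to 35713109. Next came 35710855 to 35710884, with 12 reads in eCLIP library 1 and 4 in eCLIP library 2. The third, at 35711842 to 35711877, had 11 reads and 4 reads, but the 2 intervals shared only 6 bases. Over the 9 sites the reads ran from 3 to 12 in eCLIP library 1 and from 3 to 6 in eCLIP library 2. One of them, at 35643733 to 35643778, shared a single base with its partner.

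The deepest RBL1 peaks of eCLIP library 1 met a peak of eCLIP library 2 about as often as deep peaks did elsewhere. Of 15 peaks with at least 10 reads, a limit chosen after the values were seen, 3 (20%, interval 7.05 to 45.2) overlapped an eCLIP library 2 peak, against 15.1% of the 49869 such peaks over all genes. Of the 15, 12 lay in the densest stretch. The deepest held 23 reads at 35712699 to 35712786 (the authors' p-value 1.17e-14), and the next held 21 at 35710671 to 35710736 and 17 at 35709830 to 35709880. Each of these had no eCLIP library 2 peak over it, and the nearest was 283, 115 and 149 bases away. For all 12 that were not shared, the nearest lay between 115 and 427 bases away. Most of the deepest peaks of eCLIP library 1 thus lay in the stretch that was picked as the densest of the same library. No such share over all genes is given, so nothing further is read from it.

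RBL1 peaks in eCLIP library 2 were numerous, but few were deep. They had a median of 4 reads and 48.5% held 3 reads, against a median of 3 and 50.1% over that whole library. Of the 33 RBL1 peaks, 4 (12.1%) had at least 5 reads and 2 (6.06%) had a p-value of at most 0.001, against 30.1% and 21.9% of all peaks of that library. In eCLIP library 1, 68 of 134 (50.7%) had at least 5 reads and 29 (21.6%) had such a p-value, close to 45.3% and 23.3% of all its peaks. Among peaks with a p-value of at most 0.001, RBL1 had 29 and 2 peaks in eCLIP and 1 and 0 in the inputs, which makes 2.60 and 2.18 per 10000 such peaks in eCLIP, against 1.26 and 0 in input. The eCLIP shares still lay above both inputs, by less than over all peaks. The best-ranked 11204 peaks of each library included 3 and 4 RBL1 peaks from the eCLIP libraries and 1 and 0 from the inputs.

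The 5 RBL1 peaks of input 1 held 3 to 5 reads, and 4 of them lay within 100 bases of an eCLIP library 1 peak. Of the 33 peaks of eCLIP library 2, 14 did. The median step between eCLIP library 1 peaks in RBL1 was 391 bases. No share within 100 bases over all genes is given, so nothing is read from these counts. A pair of the input 1 peaks touched end to end, at 35706535 to 35706543 and 35706544 to 35706571, so that merging touching intervals left 4. The deepest input peak, with 5 reads, ran from 35708477 to 35708530, in the same dense stretch.

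**Figure D4:**
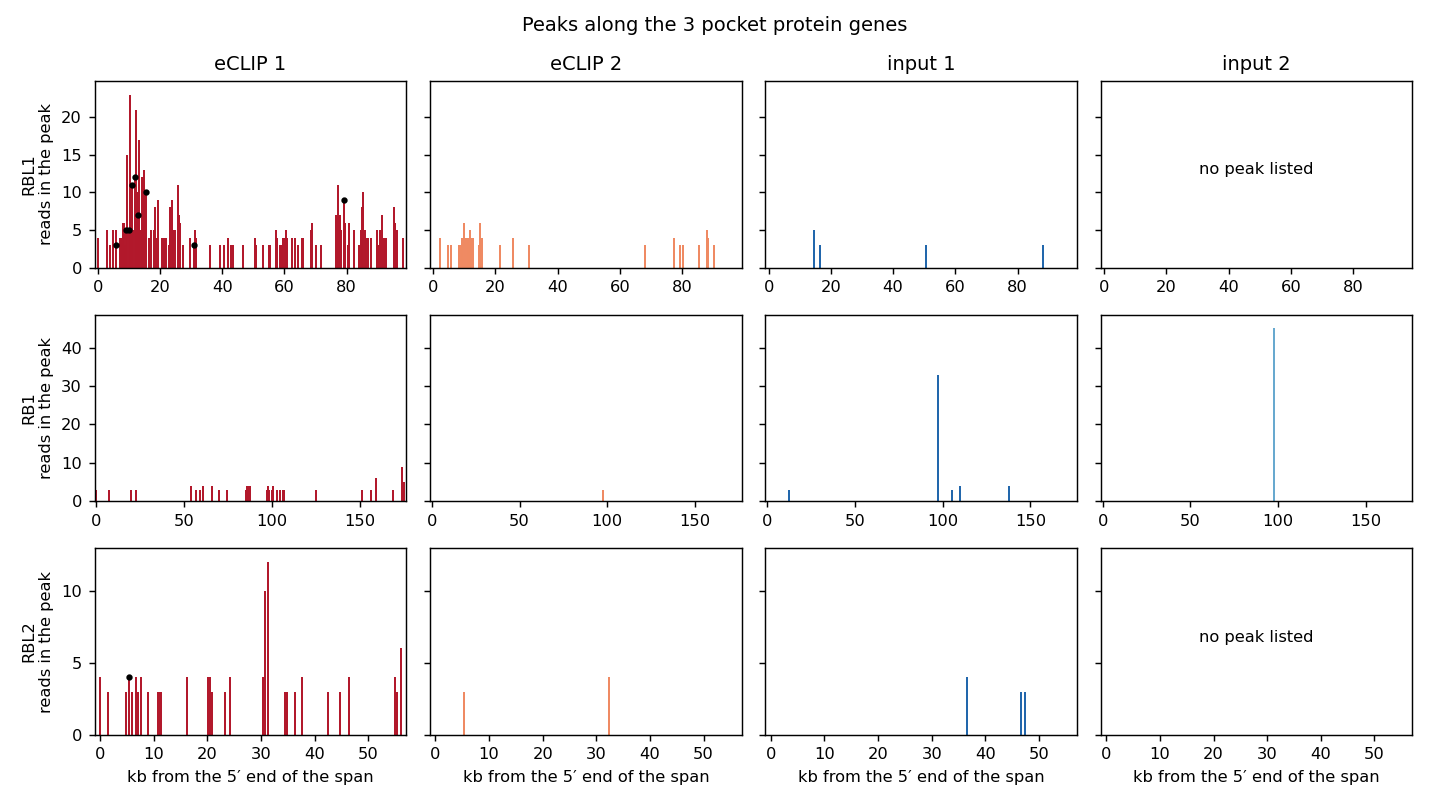
Every listed peak as a vertical line at its distance from the 5′ end of the gene's span (kb), with its height in reads, for the 3 genes (rows) and 4 libraries (columns); the height scale is shared within a row. Black dots mark peaks shared by both eCLIP libraries and absent from both inputs, 9 in RBL1, 0 in RB1 and 1 in RBL2. RBL1 has its tallest peak, of 23 reads, 10.3 kb into the span, and RB1 has its tallest peaks in the inputs, at 33 and 45 reads.

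RB1 held 1 site with a peak in all 4 libraries, and there the inputs exceeded eCLIP. Of the 5 RB1 peaks of input 1, it was the only one that overlapped a peak of either eCLIP library. On chromosome 13, plus strand, it ran from 48977408 to 48977419 in both eCLIP libraries, which gave the same 12-base interval with 3 reads each. Input 1 had 33 reads at 48977402 to 48977427 and input 2 had 45 reads at 48977398 to 48977428. The authors' p-values were 0.024 and 0.020 in the eCLIP libraries, against 1.97e-39 and 1.51e-58 for the inputs. The site took 0.00975 and 0.131 of every 10000 reads in eCLIP peaks, against 1.32 and 4.41 in input peaks. Both eCLIP libraries lay below both inputs. Input 2 listed 1 peak in RB1 and 0 in RBL1 and RBL2, so no other place in the 3 genes could have had peaks in all 4 libraries. How often such sites of other genes show the same order is not given here. The order is thus not read as particular to RB1.

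This site made up most of the RB1 signal in the inputs. It held 33 of 47 RB1 reads in input 1 (70.2%) and all 45 in input 2, and all 3 RB1 reads of eCLIP library 2, but 3 of 133 (2.26%) in eCLIP library 1. As a share of reads in peaks, RB1 took 0.432 and 0.131 per 10000 in eCLIP, against 1.89 and 4.41 in the inputs. With the limma fit run on read shares the log2 difference was -2.16 (SE 0.73, adjusted p = 0.935). Without the site RB1 took 0.423 and 0 per 10000 reads in eCLIP, against 0.562 and 0 in the inputs. What the annotation places at this site was not analysed here, since no hg19 annotation was used.

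**Figure D5:**
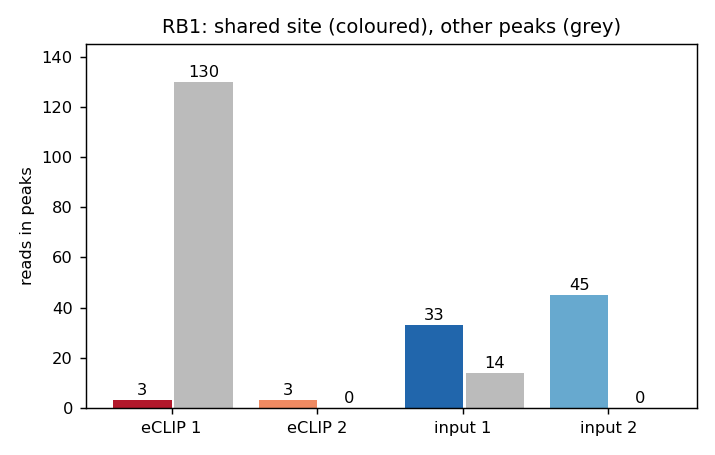
Reads in RB1 peaks in each library: coloured bars, the site on chromosome 13 found in all 4 libraries; grey bars, all other RB1 peaks. The site holds 3 and 3 reads in eCLIP and 33 and 45 in the inputs, while other RB1 peaks hold 130 and 0 reads in eCLIP and 14 and 0 in the inputs.

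Most RB1 peaks of eCLIP library 1 were shallow. Of the 38 RB1 peaks, the site above included, 27 (71.1%) rested on 3 reads, against 32.0% of all peaks in that library and 20.9% of those in RBL1. None reached 10 reads. The deepest, with 9 reads, lay at 49054457 to 49054536 near the 3′ end, and 8 of the 38 fell in the final part when the span was divided into 10. Of 5 equal parts, the middle one held 15 (39.5%, 25.6 to 55.3), against 17.7% over all genes, and the first held 4 (10.5%, 4.17 to 24.1), against 28.5% over all genes. The longest step between neighbouring peak starts was 31833 bases.

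RBL2 peaks of eCLIP library 1 were also mostly near the minimum, with 18 of 34 (52.9%) at 3 reads. Its deepest peaks held 12 reads at 53500404 to 53500450 and 10 reads at 53499947 to 53499987, some 31 kb into the span. Neither overlapped a peak of eCLIP library 2, which listed only 2 RBL2 peaks, and over all genes 15.1% of peaks this deep did. The 1 site shared by both eCLIP libraries and absent from the inputs ran from 53474477 to 53474512, with 4 reads in eCLIP library 1 and 3 in eCLIP library 2. The first of 5 equal parts of the RBL2 span held 11 of 34 peaks (32.4%, 19.1 to 49.2) in eCLIP library 1. The 4 peaks of input 1 all lay in the 3′ part of the span, from 53505743 on. A pair of them touched end to end, so that merging left 3. Over all genes the last of 5 parts held 22.5% of the peaks in input 1, against 17.0% in eCLIP library 1.

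By log2(peaks per 10000 + 0.5) over the 4 libraries, the genes closest to RBL1 were ENSG00000198218.6 and ENSG00000158195.6, at Euclidean distances of 0.75 and 0.82. ENSG00000198218.6 held 104 and 25 peaks in eCLIP, against 9 and 0 for input. ENSG00000158195.6 held 126 and 18 in eCLIP, against 6 and 0 for input. The files pair no names with these identifiers. The closest gene to RB1, at 0.07, and the closest to RBL2, at 0.02, were nearer than those of RBL1; genes with few peaks can take only a few values.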

How the data were processed

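Each library has its own deposited peak list, with intervals in hg19. Per the submitters' processing notes, cutadapt, STAR and SAMtools were used; no version, peak caller or gene annotation was given in the sources used here. Each deposited peak carries a p-value of at most 0.05 and a score that rounds down 10 times its negative log10, up to a cap of 1000. The gene names of the 3 members came with the task. The reference table of 59792 genes (GRCh38) holds 0 Ensembl identifiers, so a list of 30 RB pathway genes matched 0 identifiers in the files and is not reported. No hg19 sequence was used.

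Peaks were counted per gene and divided by the library's total. Genes whose peaks summed to at least 10 were tested with limma 3.58.1 in R 4.3.3 (lmFit, eBayes with trend) on log2(peaks per 10000 + 0.5). This scale understates changes of genes with few peaks. The fit had no replicate term and was two-sided, with Benjamini-Hochberg adjustment at 0.05. The script was tested on simulated peaks that varied by counting error only, which does not give its power on these libraries. Shared peaks overlap by at least 1 base on the same strand. Positions use each peak's midpoint. Named genes were the 3 members and, by identifier, the 2 genes nearest RBL1 in Euclidean distance; sites shown were the 3 shared eCLIP-only peaks with most reads in the weaker library and peaks found in all 4 libraries, beside others named after their values were seen. The members and lists were chosen with earlier results of these data known. Alternatives covered the pseudocount, filters, p-value and read limits, equal lists, merged peaks, read shares, the replicate block and each library left out. Python 3.11.15 with pandas 2.3.3, SciPy 1.17.1 and matplotlib 3.10.9 was used.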

Additional observations from a re-analysis of the deposited data

How the results depend on the processing

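For RBL1 the log2 difference of eCLIP minus input stayed positive in every alternative that gave a value, between 1.54 and 4.01. It was 4.01 with a pseudocount of 0.1, 1.54 with a pseudocount of 2 and 1.62 with peaks of p at most 0.001, and leaving out 1 library gave 2.02 to 3.39. RBL1 was chosen on these same shares, so the positive sign was largely set by that choice and is no further support. RB1 stayed negative (-2.16 to -0.05; -0.86 to -0.05 with 1 library left out). RBL2 ran from -0.061 to 1.33, and from -0.061 to 1.12 with 1 library left out; the negative value came without input replicate 2. The adjusted p of RB1 and RBL2 lay between 0.346 and 0.999 in all alternatives that gave one. With too few peaks left, RB1 and RBL2 had no value under the limits of p at most 0.001, at least 5 reads and equal lists, nor RBL1 under equal lists.

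limma called 0 genes in either direction in most alternatives. With the replicate block it called 3 higher and 1 lower. The number pairs only 2 libraries per group and no label says that it marks a shared culture. Across genes the differences of library 1 minus 2 in eCLIP and in input correlated at r = 0.40. Library 1 is the longer list in both groups, and what this r owes to list length was not tested. With the block the log2 differences were 2.71 for RBL1, -0.46 for RB1 (adjusted p = 0.879) and 0.53 for RBL2 (adjusted p = 0.855). Leaving out 1 library gave 0 to 695 genes higher and 0 to 5 lower; the 695 came without eCLIP replicate 2, where a lone eCLIP library is assumed to vary like the inputs. Such counts set no difference between the groups.

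At a p-value of at most 0.001 the shared eCLIP-only peaks numbered 1 in RBL1 and 0 in RBL2. Relative to an even spread, the first of 5 parts of RBL1 held 1.68 and 3.03 times its share of peaks in eCLIP libraries 1 and 2, and the first of 10 parts 1.19 and 2.12 times, where all genes had 1.59 and 1.56 times. The last of 5 parts of RB1 held 1.32 times and the last of 10 parts 2.11 times in eCLIP library 1. The cause of these shifts was not tested. The number of reads per peak, often 3, and the unknown depth limit what a missing peak can show.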

Other observations

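Peaks listed under other gene identifiers within the spans were almost absent. In the spans of RBL1 and RB1 no library listed a peak on the opposite strand or under another identifier on the same strand. In the span of RBL2, eCLIP library 1 listed 1 peak of 10 reads on the opposite strand, and the other libraries listed none.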
